A study of Mus musculus with 6 samples.

Results

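The digestive enzymes and regulators of pancreatic acinar cells were followed in islet RNA as a list of 33 gene symbols: 14 serine proteases, 2 carboxypeptidases, 3 amylases, 6 lipases or lipase partners, 1 ribonuclease, 4 granule proteins or inhibitors and 3 transcription factors. Genes were matched by symbol, and 32 of the 33 were found among the 21813 symbols of the table. Cela3a had no row under that name. RefSeq lists Gm13011 as an earlier symbol of Cela3a, and the row Gm13011 is given below as a gene outside the list. The islets came from adult male mice aged 3 months, 3 of them Ucn3 null and 3 wild-type littermates, with 1 library per animal. Urocortin 3, the peptide encoded by Ucn3, is released by beta cells. The sources used here do not say how the null allele was made. The labels describe islets of mixed cell type, freed by collagenase injected through the bile duct, while the extraction text mentions a cell sort.

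Acinar cells make up most of the exocrine pancreas that surrounds the islets. They store inactive enzyme precursors, called zymogens, in granules and release them into the ducts, and the enzymes then digest protein, starch, fat and nucleic acid in the gut. The transcription factor Ptf1a, working with Rbpjl, drives the enzyme genes, and Bhlha15, also called Mist1, organises the secretory machinery of these cells. Islets are endocrine and have to be freed from this tissue by digestion. In these bulk samples, fewer acinar cells and less acinar RNA per cell cannot be told apart.

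Values are RPKM, the authors' read number scaled to transcript length and to the size of the library. Depth, estimated from the spacing of low RPKM values, was 42450000 to 51820000 reads per library. Ucn3 checked the labels: it stood at 136, 157 and 155 RPKM in wild-type replicates 1 to 3 and at 1.61, 1.63 and 1.80 RPKM in Ucn3 null replicates 1 to 3. Defining islet markers were present at high levels in each library, with a summed level of 10 beta cell genes of 230700 to 285900 RPKM.

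The 32 acinar genes together held 9335, 765.0 and 3581 RPKM in wild-type replicates 1 to 3 and 34510, 19700 and 6901 RPKM in Ucn3 null replicates 1 to 3. This was 1.99%, 0.154% and 0.743% of the summed RPKM of all genes in the wild-type libraries and 7.40%, 4.14% and 1.47% in the null libraries. Ucn3 null replicate 1 therefore carried 45.1 times the acinar level of wild-type replicate 2. The groups overlapped, because Ucn3 null replicate 3 had less acinar RNA than the first wild-type replicate. The mean of the null libraries was 4.47 times that of wild type, at 20370 ± 13820 against 4561 ± 4368 RPKM (SD, n = 3 each), with an SD that was large against the mean in both groups. In pairs of means given below, wild type stands first.

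**Figure D1:**
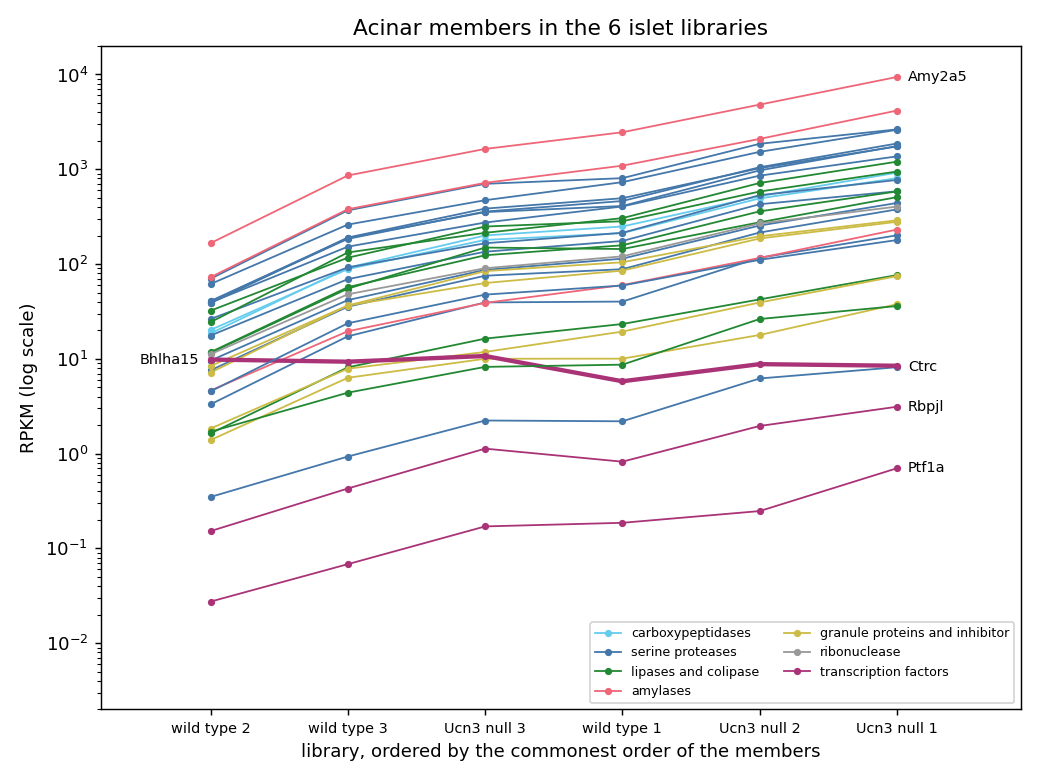
RPKM on a log axis of the 32 acinar genes in each of the 6 libraries, 1 line per gene coloured by role, with libraries ordered from the lowest to the highest by the commonest order of the genes. 31 lines rise from wild-type replicate 2 to Ucn3 null replicate 1, 28 of them at every step. The lines of Ctrc, Pnliprp1 and Rbpjl dip from Ucn3 null replicate 3 to wild-type replicate 1. The thick line of Bhlha15 stays between 5.80 and 10.7 RPKM.

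The comparison of null with wild-type islets asks whether loss of Ucn3 goes with another level of any transcript. It was made with limma on log2(RPKM + 1) over the 12652 genes with a mean of at least 1 RPKM. 31 of the 32 acinar genes were tested, and Ptf1a fell below the filter. No acinar gene passed an adjusted p of 0.05, against 0.0158% of all genes tested, which is 2 genes. Both were lower in null islets, and Ucn3 itself was among them. The smallest limma adjusted p among the acinar genes was 0.49. All 31 log2 differences were positive, from 0.17 for Bhlha15 to 2.74 for Prss3, with a median of 2.42 where the median of all genes tested was -0.03. At an unadjusted p under 0.05 limma counted 30 of the 31 acinar genes as higher, against 1.46% of all genes, and 0 as lower, against 7.9%. The acinar genes share their variation between libraries, so these 30 are not separate pieces of evidence.

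The groups were separated without overlap for 3 of the 31 tested acinar genes, Ctrc, Pnliprp1 and Rbpjl, where 1.9% of all genes tested were higher in every null library. Rbpjl passed the filter of 1 RPKM only through the null libraries, so its separation is no support for a difference. No acinar gene was lower in every null library, against 13.2% of all genes. The size of the difference varied with the libraries included. Without wild-type replicate 1 the median log2 difference was 3.22, without wild-type replicate 3 it was 2.50 and without Ucn3 null replicate 3 it was 3.00, and limma counted 30, 29 and 30 acinar genes at an unadjusted p under 0.05. Without wild-type replicate 2 the median log2 difference of the acinar genes was 1.52 and limma counted 9 of them at an unadjusted p under 0.05. Without Ucn3 null replicate 1 the median was 1.96 over 30 tested genes and 2 of them were counted, and without Ucn3 null replicate 2 it was 2.28 and 7 were counted. With wild-type replicate 2 and Ucn3 null replicate 1 both left out, a choice made after seeing the data, the median was 1.03 and 1 gene was counted. In all of these fits limma called 0 acinar genes. The acinar genes share their variation here too, so the genes counted are not separate pieces of evidence. The share of all genes counted in each of these fits was not computed. These counts therefore cannot be set against a background.

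A list of 28 other exocrine genes was set beside the acinar genes. Of these, 22 were tested, all 22 with positive differences and a median of 1.59, and 0 were called by limma. Limma counted 18 of the 22 as higher at an unadjusted p under 0.05, against 1.46% of all genes tested. The summed level of this list ran from 101 to 565 RPKM in wild type and from 548 to 1977 RPKM in null islets. The 4 genes of the list with the smallest p were Reg3d, Gnmt, Cckar and Reg2. Gnmt encodes a methyltransferase that uses glycine, Reg3d and Reg2 encode secreted lectins of the regenerating family, and Cckar encodes the cholecystokinin receptor through which acinar secretion is stimulated. Reg3d was at 1.03, 0.0324 and 0.741 RPKM in wild type and 5.62, 1.85 and 2.15 RPKM in null islets. Gnmt varied little, at 2.65 ± 0.172 and 3.51 ± 0.364 RPKM (SD, n = 3 each). None of these 4 genes overlapped between the groups, where 1.9% of all genes tested were higher in every null library. The 4 were picked by smallest p, which favours genes without overlap. Reg3d and Cckar had wild-type means of 0.60 and 0.42 RPKM, under the filter of 1 RPKM. They were tested only through their null means of 3.21 and 1.61 RPKM, so their separation is no support for a difference. Cckar was at 0.719, 0.170 and 0.372 RPKM in wild type and 2.56, 1.34 and 0.929 RPKM in null islets. Reg2 was at 3.52, 0.0906 and 4.05 RPKM in wild type and 6.92, 11.8 and 13.4 RPKM in null islets, and so was highest in Ucn3 null replicate 3, unlike the enzymes. Gm13011 was at 72.1, 8.97 and 34.4 RPKM in wild type and 269, 186 and 63.2 RPKM in null islets.

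With the mean of these 22 genes as a covariate, 28 of the 31 acinar genes had a negative difference and the median was -0.66. Limma called 0 of them (smallest adjusted p = 0.86), and the median of all genes tested was -0.01. At an unadjusted p under 0.05 limma counted 23 of the 31 acinar genes as lower and 1 as higher. The share of all genes counted in this fit was not computed. The acinar genes share their variation between libraries, so neither the 28 negative differences nor these counts are separate pieces of evidence. The covariate turned the direction of the main comparison. The covariate itself differed between the groups. Its mean log2 level was 3.13, 1.60 and 2.55 in wild type and 4.42, 3.94 and 3.29 in null islets. Of its 22 genes 7 were higher in every null library, against 1.9% of all genes tested. These 7 include Reg3d and Cckar, which passed the filter only through the null libraries. The covariate also holds trypsin-like genes and Gm13011, whose reads can be shared with the acinar list.

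**Figure D2:**
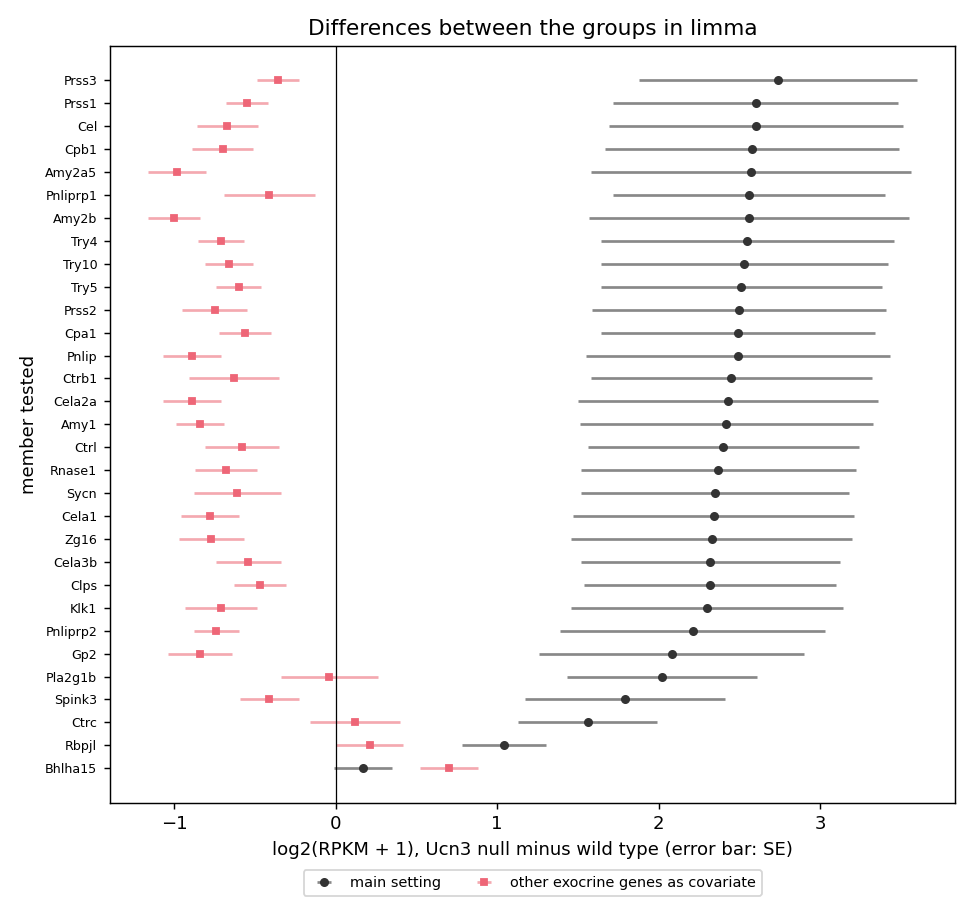
Difference in log2(RPKM + 1) between Ucn3 null and wild-type islets for the 31 tested acinar genes, with bars for the standard error, from limma without a covariate (black circles) and with the mean of other exocrine genes as a covariate (red squares). Without the covariate all 31 points are above 0, and with it 28 are below 0.

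Of the marker lists of 8 other cell types, the duct and delta cell lists had summed levels that did not overlap between the groups. Of 14 ductal markers 11 were tested, and all 11 had negative differences, with a median log2 difference of -0.33. Limma counted 7 of them as lower at an unadjusted p under 0.05, against 7.9% of all genes tested. In every null library 5 of the 11 were lower, against 13.2% of all genes tested. The summed level of the duct list ran from 339 to 443 RPKM in wild type and from 276 to 335 RPKM in null islets. The groups were thus separated by a narrow margin, in the direction opposite to the acinar genes. Krt19, a keratin of duct cells, was at 18.5, 22.8 and 13.3 RPKM in wild type and 13.0, 5.31 and 3.96 RPKM in null islets. All 3 tested delta cell markers were lower in every null library, against 13.2% of all genes tested. The summed level over the 4 markers of the delta cell list was 1747 to 2405 RPKM in wild type and 683 to 1083 RPKM in null islets. Summed levels of the beta, alpha, endothelial, stromal, macrophage and red cell lists overlapped between the groups. No marker of these 8 lists was at 0 in any library. Limma called 0 of their genes. At an unadjusted p under 0.05 it counted as lower the 7 duct genes, the 3 delta cell genes and 1 macrophage gene. It counted 1 beta cell gene as higher. Of all genes tested, 7.9% were counted as lower and 1.46% as higher. The part of cell composition in the acinar result was not tested.

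Trypsins cleave proteins after basic residues and activate the other zymogens in the gut. They are made as trypsinogens, whose activation peptide ends in a run of aspartates and a lysine, encoded by gatgatgatgacaag in all 6 trypsin genes of the list. The mouse trypsin genes are close copies of each other. The stretches below, codons 9 to 28 of each open reading frame in the GENCODE M21 transcripts, are shown because they let a reader see how little separates the copies. Capitals mark bases that differ from Try4.
Prss1: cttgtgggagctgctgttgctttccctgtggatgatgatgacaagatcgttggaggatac
Prss2: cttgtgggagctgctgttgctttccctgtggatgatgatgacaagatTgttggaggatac
Prss3: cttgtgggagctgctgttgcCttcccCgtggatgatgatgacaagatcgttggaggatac
Try4: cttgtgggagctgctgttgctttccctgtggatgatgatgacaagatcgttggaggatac
Try5: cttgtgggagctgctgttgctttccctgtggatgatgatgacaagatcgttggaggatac
Try10: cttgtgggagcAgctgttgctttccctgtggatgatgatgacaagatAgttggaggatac
Prss1, Try4 and Try5 are identical over these 60 bases, and Prss2, Prss3 and Try10 differ from Try4 at 1, 2 and 2 bases. Over the 741 bases of the reading frame, identity was 97.4% between Try4 and Try5, with a shared run of 274 bases, and 96.4% between Prss1 and Prss3. The lowest identity, between Prss2 and Prss3, was 88.7%. The sources used here do not say how reads shared between copies were counted, so the levels of single trypsin genes are uncertain.

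Prss2, the trypsin with the highest mean in wild type, was at 495, 38.7 and 190 RPKM in wild-type replicates 1 to 3 and at 1739, 1026 and 384 RPKM in Ucn3 null replicates 1 to 3. Try4 was at 462, 40.3 and 184 RPKM in wild type and 1869, 1050 and 358 RPKM in null islets, and Try5 at 410, 40.7 and 189 and at 1756, 973 and 353 RPKM. Each of the 3 was lowest in wild-type replicate 2 and highest in Ucn3 null replicate 1, and the groups overlapped. Try10 stood at 55.0 ± 53.4 and 261 ± 177 RPKM and Prss1 at 43.8 ± 41.0 and 222 ± 151 RPKM (SD, n = 3 each). Prss3 was at 40.2, 3.31 and 17.3 RPKM in wild type and 201, 117 and 39.4 RPKM in null islets. Its null to wild-type ratio of 5.87 compares with 4.35 for Prss2.
The log2 difference of Prss3 was 2.74 (SE 0.86, limma adjusted p = 0.49), with overlapping groups.

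Chymotrypsins cleave after aromatic residues and elastases after small ones. Ctrb1, which encodes chymotrypsinogen B, was at 805, 70.0 and 368 RPKM in wild type and 2634, 1856 and 702 RPKM in null islets. Ctrl, a chymotrypsin-like protease, stood at 87.3 ± 80.3 and 383 ± 229 RPKM (SD, n = 3 each). Ctrc, or chymotrypsin C, which regulates trypsinogens by cleaving them, was far less abundant, at 2.19, 0.349 and 0.931 RPKM in wild type and 8.15, 6.20 and 2.24 RPKM in null islets. These values correspond to about 89, 16 and 43 reads and about 402, 283 and 99 reads, and Ucn3 null replicate 3 lay just above wild-type replicate 1. The log2 difference of Ctrc was 1.56 (SE 0.43, limma adjusted p = 0.49), and 2.28 (SE 0.65) with a pseudocount of 0.1 RPKM in place of 1.

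Cela2a was the most abundant elastase, at 731, 61.5 and 261 RPKM in wild type and 2607, 1526 and 471 RPKM in null islets. Cela1 stood at 199 ± 187 and 833 ± 548 RPKM, and Cela3b at 111 ± 95.0 and 490 ± 305 RPKM (SD, n = 3 each). Unlike the trypsins, the 3 elastase reading frames were 60.5% to 62.1% identical, with shared runs of at most 21 bases, and the chymotrypsin frames 54.7% to 64.1%. Klk1, a tissue kallikrein that releases kinins, was at 59.3, 4.54 and 23.7 RPKM in wild type and 179, 111 and 47.6 RPKM in null islets. The carboxypeptidases Cpa1 and Cpb1, which trim peptides from their carboxyl ends, were at 107 ± 97.2 and 493 ± 313 RPKM and at 120 ± 118 and 547 ± 361 RPKM (SD, n = 3 each). All of these genes except Ctrc had wild-type replicate 1 above Ucn3 null replicate 3.

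Amylase splits starch, and Amy2a5 held the highest RPKM of the acinar list in every library. Amy2a5 was at 2456, 166 and 859 RPKM in wild type and 9407, 4808 and 1638 RPKM in null islets. Amy2b was at 1091, 72.6 and 379 RPKM in wild type and 4160, 2090 and 719 RPKM in null islets. Amy1, the amylase of salivary gland and liver, was at 60.0, 4.63 and 19.5 RPKM in wild type and 231, 116 and 38.9 RPKM in null islets. The 3 genes together supplied 31.8% to 40.0% of the summed acinar level. The log2 differences were 2.57, 2.56 and 2.42 with SEs of 0.99, 0.99 and 0.91 for Amy2a5, Amy2b and Amy1, the limma adjusted p was 0.50, 0.50 and 0.49, and the groups overlapped for each.

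The amylase rows were not independent of each other. The ratio of Amy2a5 to each of the neighbouring copies Amy2a2, Amy2a3 and Amy2a4 was 2.37 in every library, with a spread of 0.044%, so the 4 rows varied as 1. GENCODE M21 gives these transcripts nearly equal lengths, 3715 bases for Amy2a5 and 3717 for the others. The transcript lengths behind the RPKM values can differ from these, and whether they give the ratio was not tested. How reads were divided among the copies was not tested, and the level of any single amylase is uncertain. The ratio of Amy2a5 to Amy2b ran only from 2.25 to 2.30. Against Amy1 it ran from 35.9 to 44.0, and the reading frames of Amy1 and Amy2a5 were 89.4% identical.

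Pancreatic lipase, encoded by Pnlip, splits dietary fat and needs colipase, the product of Clps, to work in the presence of bile salts. Pnlip was at 305, 24.4 and 132 RPKM in wild type and 1202, 716 and 213 RPKM in null islets. Clps was at 283, 32.2 and 117 RPKM in wild type and 946, 582 and 249 RPKM in null islets. The ratio of Pnlip to Clps was 1.08, 0.757 and 1.14 in wild type and 1.27, 1.23 and 0.858 in null islets, so enzyme and cofactor varied less against each other than either did between libraries. Cel, the bile salt-stimulated lipase, stood at 75.5 ± 74.7 and 356 ± 230 RPKM (SD, n = 3 each).

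The lipase-related gene Pnliprp1 was at 144, 11.6 and 55.0 RPKM in wild type and 508, 276 and 149 RPKM in null islets, so that all null libraries lay above all wild-type libraries. Its log2 difference was 2.56 (SE 0.84, limma adjusted p = 0.49). The separation rests on Ucn3 null replicate 3, where the ratio of Pnlip to Pnliprp1 was 1.43, against 2.10 to 2.60 in the other libraries. Pnliprp2, which also acts on galactolipids, was lower, at 11.0 ± 11.1 and 45.1 ± 30.2 RPKM (SD, n = 3 each). Pla2g1b, a secreted phospholipase, was at 8.68, 1.70 and 4.40 RPKM in wild type and 36.1, 26.3 and 8.22 RPKM in null islets. In Ucn3 null replicate 3 it was just under wild-type replicate 1.

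Rnase1, the secreted pancreatic ribonuclease, stood at 59.9 ± 55.7 and 254 ± 157 RPKM (SD, n = 3 each). The granule genes Sycn, which encodes syncollin, and Zg16 were at 49.8 ± 49.3 and 190 ± 103 RPKM and at 43.0 ± 39.4 and 176 ± 108 RPKM (SD, n = 3 each). Gp2, the main glycoprotein of the zymogen granule membrane, was at 19.4, 1.84 and 7.87 RPKM in wild type and 74.6, 39.3 and 11.8 RPKM in null islets. Spink3, the inhibitor that protects acinar cells from early trypsin activity, was at 10.04, 1.39 and 6.31 RPKM in wild type and 37.7, 17.9 and 10.02 RPKM in null islets, with the highest wild-type and lowest null library nearly level. The ratio of Prss1 to Spink3 lay between 5.44 and 8.79 in wild type and between 7.51 and 12.0 in null islets, so protease and inhibitor ratios overlapped between the groups.

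The 3 transcription factors did not behave alike. Ptf1a and Rbpjl had the lowest mean levels of the 32 genes. Rbpjl was at 0.822, 0.152 and 0.428 RPKM in wild type and 3.12, 1.96 and 1.13 RPKM in null islets, or about 86, 18 and 51 reads and about 397, 230 and 129 reads. All null libraries lay above all wild-type libraries, with a log2 difference of 1.04 (SE 0.26, limma adjusted p = 0.49). Its wild-type mean of 0.47 RPKM was under the filter of 1 RPKM, and it was tested only through its null mean of 2.07 RPKM. The separation of Rbpjl is therefore a description and no support for a difference. With a pseudocount of 0.1 RPKM in place of 1 the difference of Rbpjl was 2.02 (SE 0.52), and the ratio of its group means was 4.43. Ptf1a was at 0.186, 0.0275 and 0.0682 RPKM in wild type and 0.701, 0.248 and 0.171 RPKM in null islets, or about 12, 2 and 5 reads and about 55, 18 and 12 reads. It followed the order of the enzymes at this low depth, and was not tested.

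Bhlha15 was the exception. It was at 5.80, 9.82 and 9.33 RPKM in wild type and 8.45, 8.79 and 10.7 RPKM in null islets, a ratio of highest to lowest library of 1.85. It was lowest in wild-type replicate 1 and highest in Ucn3 null replicate 3. Its log2 difference was 0.17 (SE 0.18, limma adjusted p = 0.81) and turned to -0.04 without wild-type replicate 1. With the other exocrine genes as a covariate it was 0.70 (SE 0.18, limma adjusted p = 0.96). In wild-type replicate 2, which held the least of the enzymes, Bhlha15 lay between Try10 at 9.59 RPKM and Rnase1 at 11.2 RPKM. Cpa1 was 2.05 times as high as Bhlha15 there and 95.3 times as high in Ucn3 null replicate 1.

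Promoters were read from RefSeq on GRCm38.p6 for 26 of the 32 genes, as the 250 bases before the start of transcription. The build differs from that of the table, mm9, and the table gives no coordinates. The letters TGGGAAA, a box bound by RBPJ-type factors, and the E-box CANNTG, bound by basic helix-loop-helix factors, were searched on both strands. TGGGAAA was found in 5 of 26 acinar promoters, or 19.2%, against 7.8% of the 27025 genes with a promoter in the RefSeq set, which is not limited to genes with an RPKM value. CANNTG was found in 20, or 76.9%, against 69.3% of genes. Both within 25 bases of each other, without overlap, were found in 3, Cel, Cpa1 and Ctrb1, or 11.5%, against 1.6% of genes. These 3 are printed with Bhlha15, whose level did not follow the enzymes, with TGGGAAA and the E-box beside it in capitals.
Cel, chr2:28563404-28563653, minus strand: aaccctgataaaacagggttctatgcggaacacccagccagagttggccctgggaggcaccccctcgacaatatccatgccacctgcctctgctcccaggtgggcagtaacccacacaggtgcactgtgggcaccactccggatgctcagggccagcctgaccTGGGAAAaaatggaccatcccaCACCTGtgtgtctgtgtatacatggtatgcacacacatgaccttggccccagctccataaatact
Cpa1, chr6:30638968-30639217, plus strand: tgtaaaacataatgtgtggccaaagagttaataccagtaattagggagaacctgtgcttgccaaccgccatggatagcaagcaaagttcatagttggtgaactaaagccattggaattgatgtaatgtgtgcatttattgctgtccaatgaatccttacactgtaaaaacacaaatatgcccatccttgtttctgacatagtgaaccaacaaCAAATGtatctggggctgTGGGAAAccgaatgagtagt
Ctrb1, chr8:111691011-111691260, minus strand: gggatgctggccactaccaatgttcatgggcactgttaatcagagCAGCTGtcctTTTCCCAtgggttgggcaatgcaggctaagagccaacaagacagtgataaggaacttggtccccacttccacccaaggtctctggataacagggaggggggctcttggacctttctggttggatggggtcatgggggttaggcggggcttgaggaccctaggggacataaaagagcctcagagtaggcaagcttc
Bhlha15, chr5:144190036-144190285, plus strand: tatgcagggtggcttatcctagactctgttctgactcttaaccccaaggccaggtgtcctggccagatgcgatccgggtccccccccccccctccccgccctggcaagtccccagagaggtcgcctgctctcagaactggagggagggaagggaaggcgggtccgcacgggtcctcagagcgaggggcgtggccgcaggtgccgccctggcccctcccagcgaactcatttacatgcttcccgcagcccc
The Bhlha15 window held no TGGGAAA and 3 E-boxes. Neither did the Rbpjl and Ptf1a windows hold TGGGAAA. Cel, Cpa1 and Ctrb1 spanned ratios of highest to lowest library of 49.6, 40.0 and 37.6, within the range of enzymes whose window lacks the pair, such as Amy2b at 57.3 and Cela3b at 29.3. A match is a description of letters, and no binding was measured.

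The acinar genes kept nearly fixed proportions to each other while their common level varied. Ucn3 null replicate 1 was the highest library and wild-type replicate 2 the lowest for 31 of the 32 genes, Bhlha15 being the exception. The full order, Ucn3 null replicates 1 and 2, wild-type replicate 1, Ucn3 null replicate 3, wild-type replicates 3 and 2, was shared by 28 genes. Ctrc, Pnliprp1 and Rbpjl differed from it in that Ucn3 null replicate 3 lay above wild-type replicate 1. Of all 12652 genes tested 0.482% had this order, and of the 12549 outside the gene lists 23 had it, or 0.183%. The ratio of the highest to the lowest library was at least 10 for 30 of the 31 tested acinar genes, against 0.775% of all genes tested. Outside the lists 51 genes reached it, and the median ratio was 1.29.

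**Figure D3:**
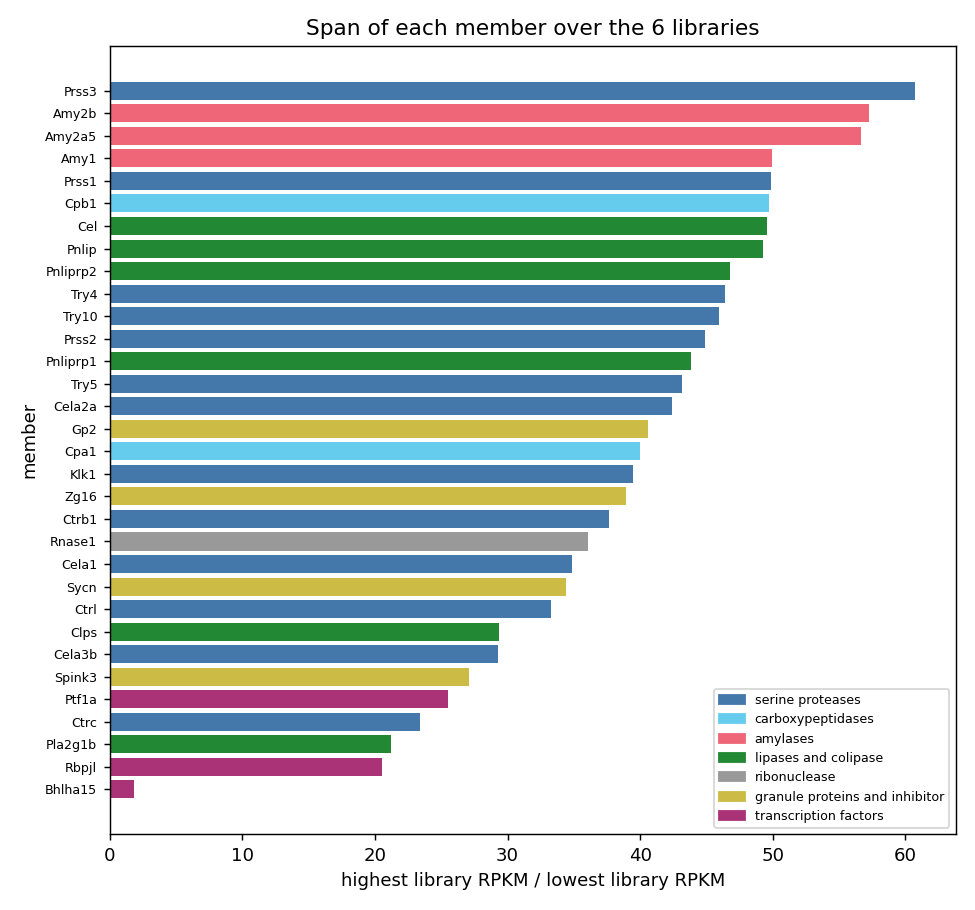
Ratio of the highest to the lowest library, in RPKM, for each of the 32 acinar genes, with bars coloured by role and starting at 0. The bars run from 20.5 for Rbpjl to 60.7 for Prss3, and Bhlha15 stands at 1.85.

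The 5 genes outside the lists with the closest pattern belong to the amylase and kallikrein families. By Pearson correlation of log2(RPKM + 1) with the mean of the acinar genes over the 6 libraries they were Klk1b5 at 0.999 and Amy2a2, Amy2a3, Amy2a4 and Klk1b4 at 0.998. The acinar genes other than Bhlha15 had correlations of at least 0.953 with that mean, which includes them, and Bhlha15 had -0.309. These correlations describe 6 points that share their library across all genes. Klk1b5 was at 16.8, 1.55 and 6.49 RPKM in wild type and 54.2, 34.4 and 14.1 RPKM in null islets, and it belongs to the kallikrein cluster of Klk1.

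Small departures from fixed proportions remained. Each gene was set against the mean log2 RPKM of 31 acinar genes in the same library, Bhlha15 left out. The relative level of a gene then ranged over a median of 0.39 log2 units across libraries, and over less than 1 unit for 29 of the 31 genes. Rnase1 and Cpa1 were the steadiest, with ranges of 0.17 and 0.10. Ptf1a and Pla2g1b had the widest ranges, 1.34 and 1.05, and Ptf1a rests on few reads.

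In wild-type replicate 2, where acinar RNA was scarcest, several of the less abundant genes took a larger share. There Rbpjl, Pla2g1b and Ctrc had relative levels of -5.82, -2.33 and -4.62, against -6.73, -3.20 and -5.35 in Ucn3 null replicate 1. The amylases lay the other way, with Amy2a5 at 4.28 in wild-type replicate 2 and 4.82 in Ucn3 null replicate 1. So did the less abundant Pnliprp2, at -2.39 and -2.12 in the same libraries, and Prss3, at -1.37 and -0.73. The more abundant Clps took a larger share in wild-type replicate 2, at 1.91 against 1.51. The shift thus did not follow abundance in every gene. Amylases supplied 31.8% of the summed acinar RPKM in wild-type replicate 2 and 40.0% in Ucn3 null replicate 1, while the serine proteases supplied 47.0% and 42.1%.

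On this relative scale 3 of the 31 genes, Prss3, Prss1 and Cpa1, were higher in every null library, and 0 were lower. They were singled out after their values were seen, as genes whose groups did not overlap, and are given as a description. The share of all genes without overlap on such a scale was not computed. Prss3 was at -1.17, -1.37 and -1.08 in wild type and -0.73, -0.75 and -0.90 in null islets on this relative log2 scale. Prss1, its closest copy, was at -0.04, -0.18 and -0.04 in wild type and 0.18, 0.13 and 0.04 in null islets. Cpa1 was at 1.23, 1.23 and 1.27 in wild type and 1.28, 1.33 and 1.29 in null islets, which is a narrow separation. Prss1 and Prss3 can share reads, being 96.4% identical, and the relative differences were not tested.

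**Figure D4:**
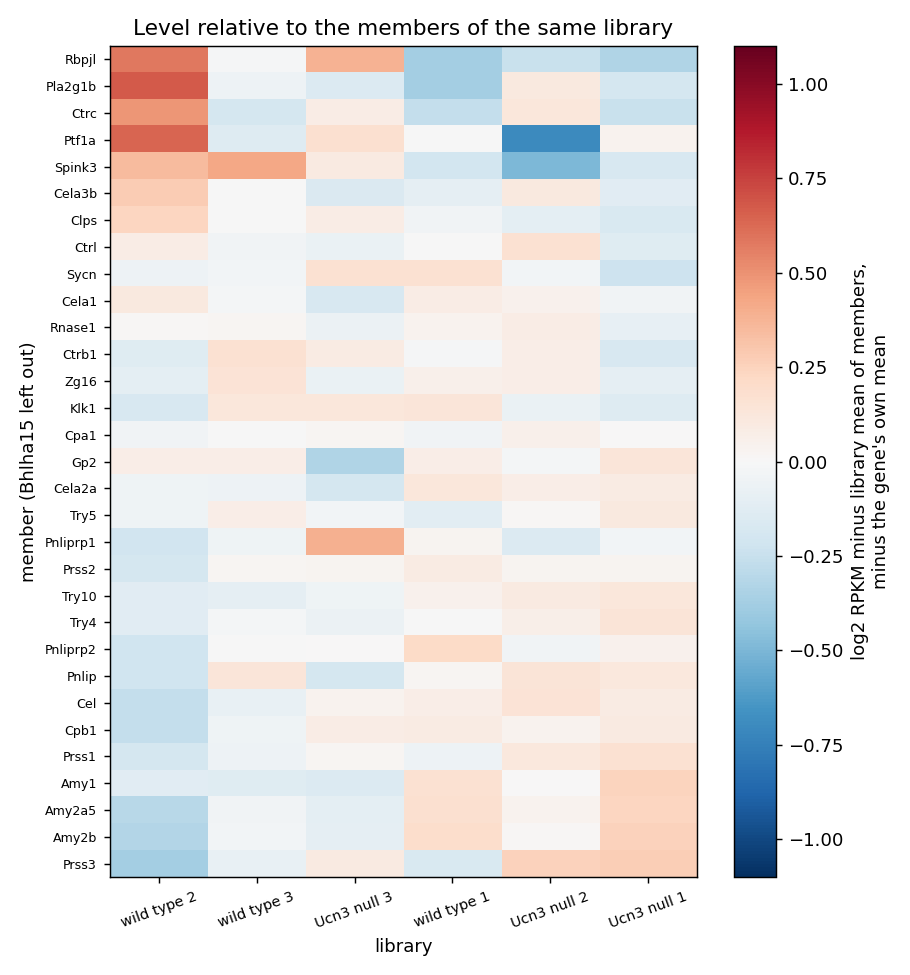
Log2 RPKM of 31 acinar genes minus the mean of these genes in the same library and minus the gene's own mean, as colours from blue (below) to red (above), with genes ordered by their ratio of highest to lowest library. The top rows, Rbpjl to Cela3b, are red in wild-type replicate 2, and the bottom rows, among them the amylases and Prss3, are blue there. The order of rows favours this, because for all 31 genes the ratio sets Ucn3 null replicate 1 against wild-type replicate 2.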

How the data were processed

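The authors deposited a table of RPKM values by RefSeq transcript and symbol, per the file headers. Libraries were made with a TruSeq kit, per the labels' protocols. STAR, bedtools, DESeq and the build mm9 are named without roles or versions per the submitters' processing notes. Counting of shared reads and of strand is not stated in these sources. The table had 28129 rows, of which 117 were empty of values and 1 held text in place of a number. A symbol with several transcripts was represented by the one of highest mean. The group difference in log2(RPKM + 1) was estimated by limma 3.58.1 (R 4.3.3) over genes with a mean of 1 RPKM or more, using eBayes with a mean trend and Benjamini-Hochberg adjustment at 0.05. Fold changes on this scale understate low genes. The fit was tested on simulated data with independent noise for each gene. That simulation does not cover genes that vary together, as the acinar genes do. Depth was estimated from steps between low values, with GENCODE M21 transcript lengths for 87.5% of rows. 74.2% to 75.6% of low values came out whole within 0.1 read, so reads are estimates.

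The acinar genes, lists and tests were chosen with earlier results of these data known. The rule for named genes took all acinar genes, Ucn3, up to 4 genes per marker list by smallest p, and 5 genes outside the lists by correlation. Gm13011 was named after its values were seen. The replicates are single animals. No protein table was used, and identity was computed from the longest open reading frame of each transcript in place of the planned protein comparison. The limit on the spacing of motifs was added after the data were seen. Plots used matplotlib 3.10.9 (Python 3.11.15).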

Additional observations from a re-analysis of the deposited data

How the results depend on the processing

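The number of animals, 3 per group, limits the comparison, and Ptf1a is limited by depth. Limma called 0 acinar genes in either direction under all 14 alternatives. The acinar median was 2.41 to 2.51 with another pseudocount, no filter, no mean trend, another scaling or the mean over transcripts, and 1.52 to 3.22 with 1 library left out. Left out together, wild-type replicate 2 and Ucn3 null replicate 1 gave 1.03, 2 genes called higher and 1 lower over all genes, and Reg2 passed (1.51, SE 0.10, limma adjusted p = 0.046). Without a filter 1 gene was called higher. With 1 library left out, 0 to 1 genes were called higher and 1 to 5 lower. Rbpjl was not tested without Ucn3 null replicate 1. Bhlha15 ran from -0.04 without wild-type replicate 1 to 0.29 without wild-type replicate 2, and was at 0.35 with both libraries left out. With a pseudocount of 0.1 RPKM, low genes had larger differences, such as 2.02 for Rbpjl, 2.28 for Ctrc, 1.75 for Cckar, 2.88 for Reg2 and 2.55 for Reg3d.

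With the other exocrine genes as a covariate 1 gene, Ucn3, was called lower and the acinar median was -0.66. The differences of Bhlha15, Rbpjl and Ctrc stayed positive, at 0.70, 0.21 and 0.12, with limma adjusted p of 0.96, 0.96 and 0.97. The others were -0.56 for Cpa1, -0.70 for Cpb1, -0.78 for Cela1, -0.89 for Cela2a, -0.54 for Cela3b, -0.63 for Ctrb1, -0.58 for Ctrl and -0.71 for Klk1. They were -0.55, -0.75, -0.36, -0.71, -0.60 and -0.66 for Prss1, Prss2, Prss3, Try4, Try5 and Try10. They were -0.89, -0.41, -0.74, -0.67, -0.47 and -0.04 for Pnlip, Pnliprp1, Pnliprp2, Cel, Clps and Pla2g1b. They were -1.0, -0.98 and -0.84 for Amy2b, Amy2a5 and Amy1, -0.98 for Amy2a2, Amy2a3 and Amy2a4, and -0.43 and -0.39 for Klk1b5 and Klk1b4. They were -0.41, -0.61, -0.77, -0.84 and -0.68 for Spink3, Sycn, Zg16, Gp2 and Rnase1. The cause was not tested. No paired analysis was possible because no label ties animals of the groups to each other.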
